A study of Homo sapiens with 24 samples.

Results

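The transcriptome of C/EBPδ-inducible MIA PaCa-2 cells after 48 h of doxycycline was compared with that of the same cells at 0 h. MIA PaCa-2 is an established human pancreatic carcinoma cell line. The comparison takes the 3 libraries labelled CEBPD at 48 hours and the 3 labelled CEBPD at t0, and thus 6 of the 24 libraries of the series. The cells carry a Tet-On construct with the CEBPD cDNA and the green fluorophore mVenus, and they are a pool of 3 clones. CTRL cells of the same parental line carry the construct without CEBPD and the red fluorophore mCherry. Both were cultured with 2 µg/mL doxycycline for 0, 8, 24 or 48 h in 3 wells each. The labels list doxycycline for the t0 samples too, while the methods describe these cells as untreated. Ribosomal RNA-depleted total RNA was sequenced and counted per gene.

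C/EBPδ is a basic leucine zipper transcription factor of the C/EBP family. It binds DNA as a dimer with itself or with other family members, and it is known as an early mediator of the acute-phase and inflammatory response, in which it acts downstream of interleukin-6 and STAT3. In many epithelial cells it is linked to growth arrest and differentiation. Doxycycline is also an antibiotic that inhibits mitochondrial translation, and culture time passes in both lines. CTRL values are therefore given beside many, but not all, of the changes from 0 h to 48 h. A change given without a CTRL value is not one shown to be absent from CTRL cells. No CTRL comparison was made for the change from 24 h to 48 h.

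The 6 libraries held between 16780129 and 22598595 counts, and 3 counts in a library correspond to 0.130 to 0.175 CPM, which scales counts by library size. Expression is given as CPM after TMM scaling, and differences are given as log2 fold changes with their standard error (SE) from edgeR's quasi-likelihood test, adjusted with the Benjamini-Hochberg method over all genes tested, at a false discovery rate (FDR) of 0.01. The wells of a group are separate cultures only as far as the labels say, and the p-values measure the spread between these wells. The lists of pancreatic acinar and endocrine markers held at most 1 count in any of the 6 libraries. Vimentin (VIM), from a list of 4 mesenchymal markers, lay between 5348 and 5913 CPM. Fibronectin (FN1) of the same list pooled 8 counts at 0 h and 24 at 48 h. The 7 epithelial and ductal markers summed to 307, 313 and 299 CPM at 0 h and to 231, 221 and 232 CPM at 48 h. The 5 fibroblast markers summed to 243, 254 and 239 CPM at 0 h and to 206, 198 and 200 CPM at 48 h. Traces of other epithelial genes stood apart, however. The 6 genes KRT5, KRT6A, KRT14, KRT16, DSC3 and DSG3, which mark squamous epithelium, summed to 5, 9 and 3 counts at 0 h and to 14, 211 and 174 counts at 48 h. At 8 h they summed to 4, 170 and 344 counts. The 5 simple epithelial genes EPCAM, ESRP1, GRHL2, SPINT1 and ITGB6 summed to 56, 13 and 5 counts at 0 h and to 95, 18 and 52 counts at 48 h, and these groups overlapped. The part of these traces in the results was not tested. In bulk RNA, fewer cells with a transcript and less transcript per cell cannot be told apart.

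**Figure D1:**
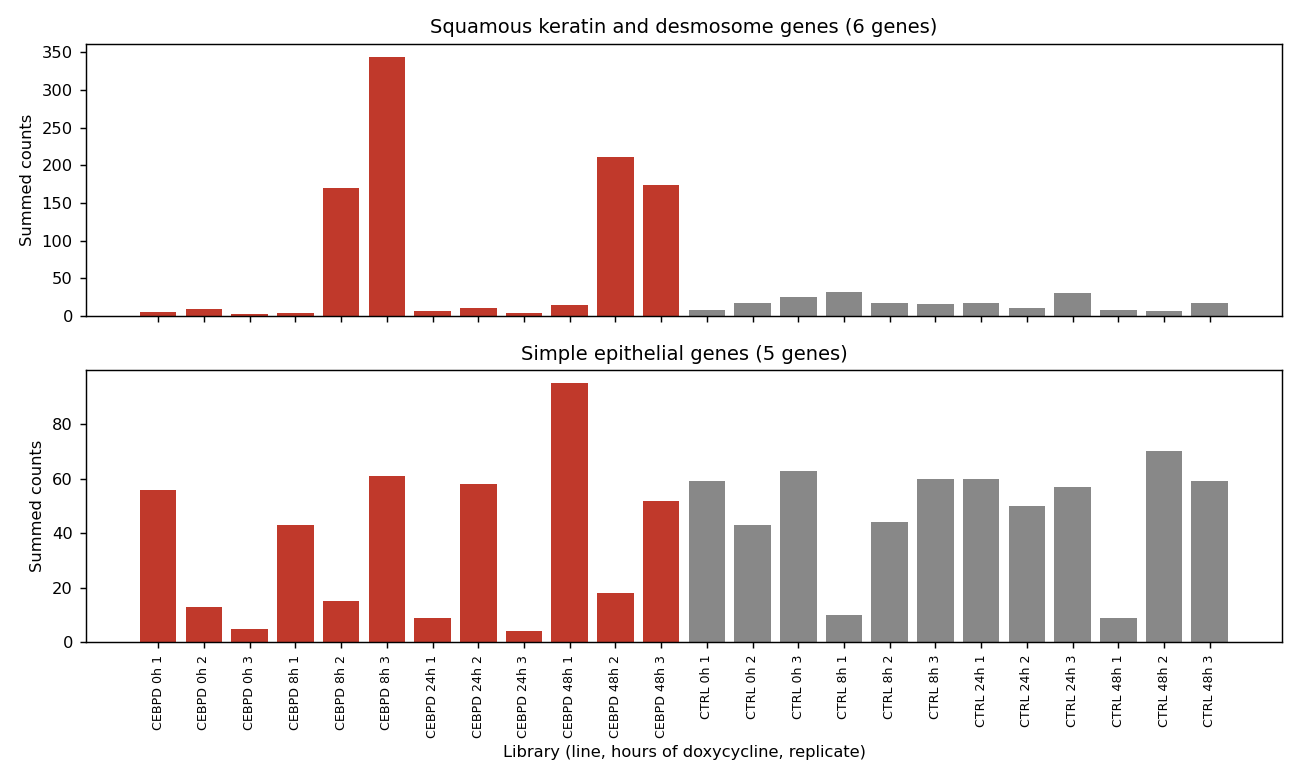
Summed counts of 6 squamous genes (upper panel) and 5 simple epithelial genes (lower panel) in each of the 24 libraries, with the CEBPD line in red and the CTRL line in grey. The squamous sum is high in replicates 2 and 3 of the CEBPD line at 48 h, with 211 and 174 counts, and is 14 in replicate 1.

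CEBPD (ENSG00000221869) was measured at 18.9, 23.4 and 22.3 CPM at 0 h and at 212, 200 and 200 CPM at 48 h. All 3 libraries at 48 h lay above all 3 at 0 h, with a log2 fold change of 3.23 (SE 0.05, adjusted p = 3.07e-25). The induced level was not constant over time, with means of 249 CPM at 8 h and 307 CPM at 24 h, and it fell by 0.61 on the log2 scale between 24 h and 48 h (adjusted p = 4.53e-10). In CTRL cells CEBPD was at 3.94 ± 0.25 CPM (SD, n = 3) at 0 h and 4.02 ± 0.63 CPM (SD, n = 3) at 48 h. Counts of the construct and of the endogenous gene are not separated in the table. Of the other 5 family members tested, CEBPG, a partner that lacks an activation domain, rose from 98.4, 99.1 and 93.1 to 118, 120 and 125 CPM, with a log2 fold change of 0.31 (SE 0.04). DDIT3, which encodes the stress-induced CHOP, rose from 6.87, 8.42 and 7.76 to 10.3, 10.8 and 11.1 CPM, by a log2 fold change of 0.47. In CTRL cells these partners had log2 fold changes of 0.68 and 1.06. CEBPA, CEBPB and CEBPZ did not pass the test, with log2 fold changes of -0.15, 0.15 and -0.08.

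Of 15394 genes tested, 5952 passed an FDR of 0.01 at 48 h, which is 38.7% of those tested. Of these, 2947 (19.1%) were higher and 3005 (19.5%) were lower, and 564 (3.66%) differed more than 2-fold. The median size of a called change was 0.35 on the log2 scale. In CTRL cells 4583 of 15294 genes (30.0%) passed the same test, 2328 (15.2%) higher and 2255 (14.7%) lower, and 556 (3.64%) differed more than 2-fold. The lines share no library, and 14734 genes were tested in both. Of these, 3276 were called in the same direction in both lines, which is 56.3% of the 5821 calls in the CEBPD line and 72.9% of the 4496 calls in CTRL cells, and 74 were called in opposite directions. Across these genes the log2 fold changes of the lines had a Pearson r of 0.68 and a Spearman rho of 0.69, as a description, since genes are not independent replicates. Whether a change differed between the lines was tested as the interaction, the log2 change in the CEBPD line minus that in CTRL cells. It was called for 904 of 16306 genes (5.54%), with 461 (2.83%) more positive and 443 (2.72%) more negative in the CEBPD line. The shares over all genes in this paragraph are the background for the list counts that follow.

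**Figure D2:**
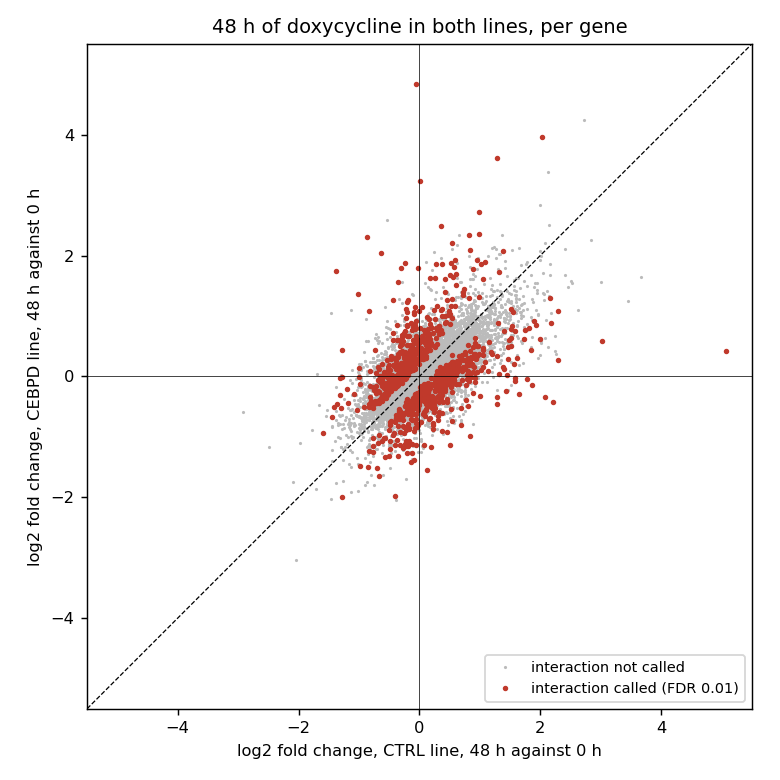
Log2 fold change between 48 h and 0 h of each gene tested in both lines, in CTRL cells (x axis) and in the CEBPD line (y axis), with genes called in the interaction in red. 14733 of the 14734 genes lie within the axes, and most of them along the dashed line of equal change.

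The 12 largest rises were those of ORM1, C3AR1, S100A9, SLPI, IL21R, PI3, CDH1, KRT17, SERPINA3, DMKN, ABCG1 and TFPI2, several of which were hardly detected at 0 h. They include secreted proteins of innate defence, receptors, a cadherin, a keratin and a transporter, and no theme was tested. ORM1, which encodes an acute-phase glycoprotein of plasma, had 0 counts in all 3 libraries at 0 h and 98, 172 and 119 counts at 48 h, or 5.55, 7.43 and 6.95 CPM. With each 0 h library taken at 3 counts, it was at least 42.8-fold higher at 48 h (adjusted p = 2.11e-14). Its near-identical neighbour ORM2 had 0 counts at 0 h and 22 in all at 48 h, and reads shared by the pair may be split between them. C3AR1, the receptor of the complement fragment C3a, also had 0 counts at 0 h and reached 2.72, 1.86 and 1.69 CPM, at least 13.5-fold higher. S100A9, a subunit of calprotectin, had 1 count in all at 0 h and 143 at 48 h, a ratio of 144 with a 95% counting interval from 25.5 to 5730. SLPI, a secreted inhibitor of leukocyte proteases, was at 0.0533, 0.0458 and 0 CPM at 0 h and at 4.19, 3.37 and 4.09 CPM at 48 h, a count ratio of 112 with an interval from 30.6 to 929. PI3, the elastase inhibitor elafin, was at 0.107, 0.183 and 0.0563 CPM at 0 h and at 5.15, 5.36 and 4.32 CPM at 48 h, with a log2 fold change of 5.29 (SE 0.31, adjusted p = 1.93e-13). The libraries at 0 h and 48 h did not overlap for 55.5% of all genes tested, in either direction. Such separation was part of the rule by which the largest rises and falls were named, and nothing is read from it. ORM1, SLPI and PI3 held at most 8 counts in any CTRL library at 0 h or 48 h, and all 3 missed the threshold in the interaction.

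Of 19 tested members of the list of acute-phase and innate genes 12 rose and 5 fell, with a median log2 fold change of 0.43 against 0.0050 over all genes. In CTRL cells 3 rose and 3 fell of 15 tested. The interaction was mixed, with 5 of 20 tested more positive, 4 more negative and 11 not called. Without the third CTRL library at 0 h it called 3 in each direction. With only the first library at 48 h, which held few squamous counts, 10 rose and 5 fell of 20 tested. The complement gene C3 rose from 1.01, 0.961 and 0.788 to 3, 2.59 and 2.33 CPM, with a log2 fold change of 1.5 (SE 0.23). IL1B, the cytokine interleukin-1β, rose from 0.959, 0.916 and 1.41 to 4.92, 4.84 and 5.72 CPM, by 2.23 on the log2 scale (SE 0.19). NFKBIA, the inhibitor of NF-κB, rose from 161, 165 and 167 to 253, 247 and 252 CPM, a log2 fold change of 0.60 (SE 0.03, adjusted p = 1.80e-14) with an interaction of 0.69. SERPINA3, PTX3, SAA1, CXCL2, CXCL5, IL6R, LIF and TNFAIP2, with ORM1, made up the other rises. Of the 12 rises, 4 missed the threshold when 1 of certain libraries was left out, namely SAA1 (adjusted p = 0.0118 and 0.0183), IL6R (0.0143 and 0.0162), CXCL5 (0.0274 and 0.0152) and TNFAIP2 (0.0143 and 0.0126), and IL6R missed it by DESeq2 (0.0160). With all libraries in the fit C3 (0.0152), CXCL5 (0.0910) and TNFAIP2 (0.0133) missed it. The 5 that fell were STAT3, SOCS3, IL6ST, CXCL1 and TLR5. STAT3, the transcription factor downstream of interleukin-6, fell from 365, 384 and 377 to 229, 213 and 227 CPM, with a log2 fold change of -0.77 (SE 0.03) and an interaction of -0.72. SOCS3, the feedback inhibitor of that pathway, fell from 13.8, 16.3 and 14.3 to 7.81, 6.27 and 7.18 CPM, by 1.09 on the log2 scale. IL6R, the ligand-binding receptor subunit, had a log2 fold change of 0.43 and the signalling subunit IL6ST one of -0.20, and IL6 itself held at most 2 counts in any of the 6 libraries. In CTRL cells STAT3, SOCS3 and IL6ST did not pass the test.

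Other strong rises were in an epidermal protein, a hair keratin and transporters. DMKN (chromosome 19, 35497220 to 35513658, GRCh38), which encodes the secreted epidermal protein dermokine, went from 0.692, 0.366 and 0.788 to 9.9, 10.5 and 10.9 CPM, with a log2 fold change of 4.10 (SE 0.18, adjusted p = 6.49e-16). KRT81 (chromosome 12, 52285913 to 52291534), a keratin of the hair cortex, went from 8.79, 11 and 10.5 to 120, 118 and 119 CPM, with a log2 fold change of 3.55 (SE 0.06, adjusted p = 3.07e-25). In CTRL cells it stayed under 0.7 CPM in all 6 libraries at 0 h and 48 h. SLC2A3 (chromosome 12, 7919230 to 8019007), the high-affinity glucose transporter GLUT3, went from 54, 54.3 and 58.3 to 308, 318 and 317 CPM, with a log2 fold change of 2.49 (SE 0.04, adjusted p = 5.87e-26). The CTRL value was 0.36 and the interaction 2.13 (SE 0.05, adjusted p = 8.55e-15). ABCG1, which exports cholesterol, went from 1.28, 1.56 and 1.46 to 21.3, 23.2 and 23.5 CPM, with a log2 fold change of 3.97 (SE 0.12). It also rose in CTRL cells, by 2.02, and the interaction was 1.93 (adjusted p = 5.08e-07). IGFBP5, an IGF-binding protein, went from 10.9, 11.6 and 11.6 to 49.6, 52.5 and 57.7 CPM, with a log2 fold change of 2.21 (SE 0.07). IL21R, the receptor of interleukin-21, went from 0.0533, 0.0458 and 0.113 to 3.45, 4.02 and 3.79 CPM, a count ratio of 55.2 with an interval from 21.2 to 204. TFPI2, an inhibitor of serine proteases, was the lowest of the 12 largest rises, at 0.849, 1.3 and 1.63 CPM at 48 h and a log2 fold change of 3.77.

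**Figure D3:**
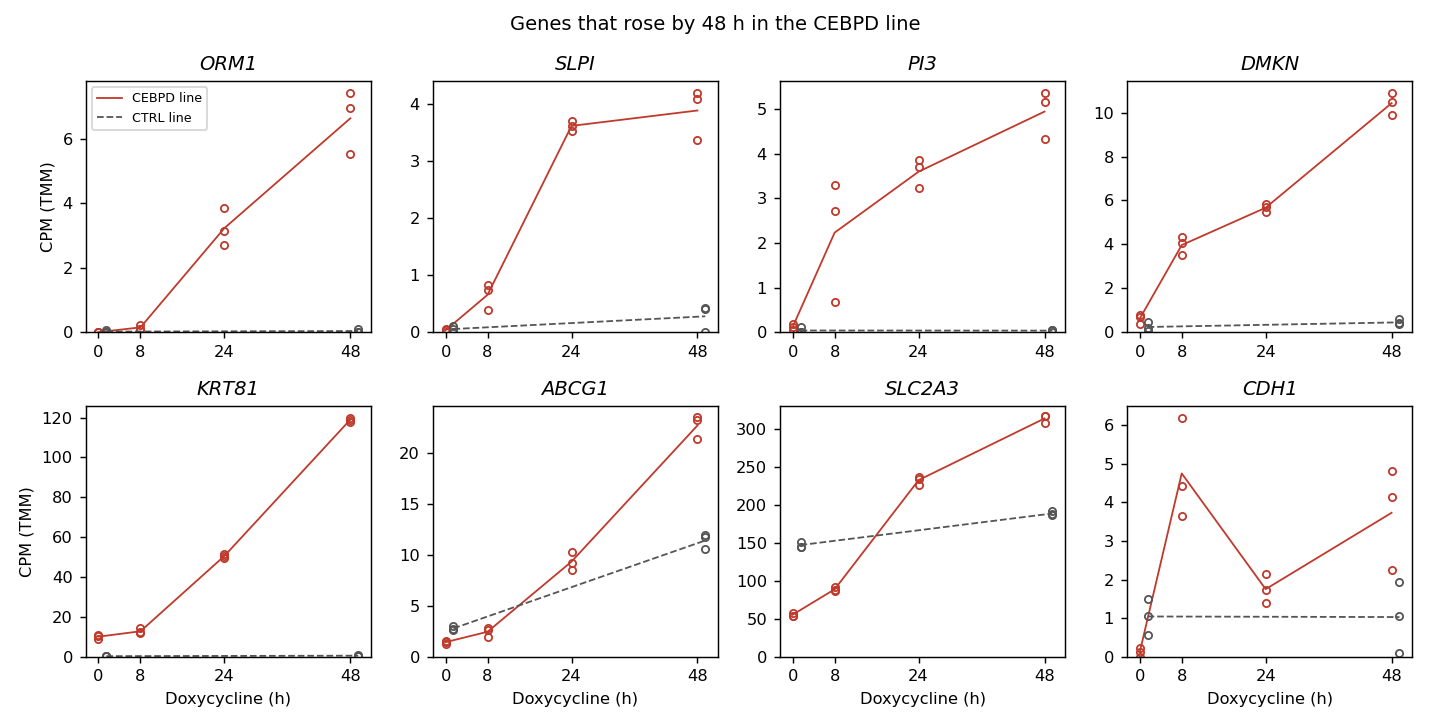
CPM of 8 genes that rose by 48 h, against hours of doxycycline, with 1 point per library and lines through the means, for the CEBPD line (red) and for CTRL cells at 0 h and 48 h (grey, dashed). KRT81 is at 118 to 120 CPM in the 3 libraries at 48 h, and CDH1 is higher at 8 h than at 24 h.

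The 250 bases before the start sites of these genes were read for the letters that C/EBP dimers are known to bind, namely the palindrome TTGCGCAA, the looser TTGCNNAA, which includes it, and TGATGCAA, the element bound by C/EBP dimers with ATF4. Both strands were read in RefSeq promoters (GRCh38.p14), in which 10203 of 15392 tested genes were found. TGATGCAA was in 0.578% of the tested genes and in 2 of the 7 largest rises with an entry, DMKN and IL21R. TTGCNNAA was in 8.58% of the tested genes, in 1 of the same 7 rises (DMKN), in 2 of 9 of the largest falls (COL13A1 and LASTR) and in 2 of 5 genes of the motility panel described below (AXL and EGFR). TTGCGCAA was in 0.255% of the tested genes and in none of these. Stretches of these promoters are shown because they are where a match lies near a gene that moved at 48 h. Each is printed 5′ to 3′ on the strand of the gene, with the match in capitals, and the EGFR and the second DMKN stretch belong to start sites inside the gene. A match is a description of the letters only.
DMKN, chr19:35513806-35513893, minus strand: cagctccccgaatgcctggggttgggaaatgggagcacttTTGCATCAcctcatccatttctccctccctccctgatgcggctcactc
DMKN, chr19:35501975-35502062, minus strand: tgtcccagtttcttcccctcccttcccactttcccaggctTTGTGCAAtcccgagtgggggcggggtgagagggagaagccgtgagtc
IL21R, chr16:27427113-27427200, plus strand: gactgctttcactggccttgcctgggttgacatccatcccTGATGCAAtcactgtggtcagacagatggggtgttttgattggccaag
AXL, chr19:41219143-41219222, plus strand: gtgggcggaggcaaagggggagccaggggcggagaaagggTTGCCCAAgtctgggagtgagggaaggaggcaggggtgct
EGFR, chr7:55109742-55109829, plus strand: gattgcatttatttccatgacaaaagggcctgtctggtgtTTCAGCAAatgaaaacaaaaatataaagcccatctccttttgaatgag

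The study singled out 7 motility-related genes from this series, so that their direction is not independent evidence here. All 7 fell at 48 h, with a median log2 fold change of -0.80, and all 7 had a negative interaction. AXL (chromosome 19, 41219223 to 41261766), a receptor tyrosine kinase linked to invasion, fell from 234, 248 and 234 to 109, 104 and 111 CPM, with a log2 fold change of -1.16 (SE 0.04, adjusted p = 2.78e-19) and an interaction of -0.94. EGFR, the epidermal growth factor receptor, fell from 252, 258 and 253 to 120, 135 and 157 CPM, with a log2 fold change of -0.90 (SE 0.05, adjusted p = 1.24e-13) and an interaction of -0.83. The EGFR libraries at 48 h were spread more widely than those at 0 h, and all lay below them. MYPN, which encodes the actin-associated myopalladin, fell from 104, 107 and 118 to 53, 44.6 and 50 CPM, a log2 fold change of -1.17 (SE 0.05) and the most negative interaction of the panel, -1.37. GSN, the actin-severing protein gelsolin, was at 29.1, 29.2 and 29.3 CPM at 48 h against 51.4, 49.4 and 50.4 CPM at 0 h, and its interaction was -1.02. ETS1, a transcription factor downstream of ERK, NET1, an exchange factor for RhoA, and ITGB4, the integrin β4 subunit, fell by 0.74, 0.73 and 0.65 on the log2 scale, with interactions of -0.33, -0.61 and -0.96. The ETS1 interaction missed the threshold with the replicate block (adjusted p = 0.0111) or with only the first library at 48 h (0.0279). CTRL cells held 1 rise (ITGB4) and 2 falls (AXL and ETS1) in the panel. The genes reached their 48 h levels by different courses. GSN had its lowest mean at 8 h, 19.6 CPM, and ITGB4 at 24 h, 22.2 CPM, from which ITGB4 rose by 0.51 to 48 h. AXL, ETS1 and MYPN fell further after 24 h, by 0.16, 0.14 and 0.53. The loci of GSN, AXL and EGFR each share bases with an antisense gene, and reads of such pairs cannot be told apart without the strand setting, which is not given in the sources used here.

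**Figure D4:**
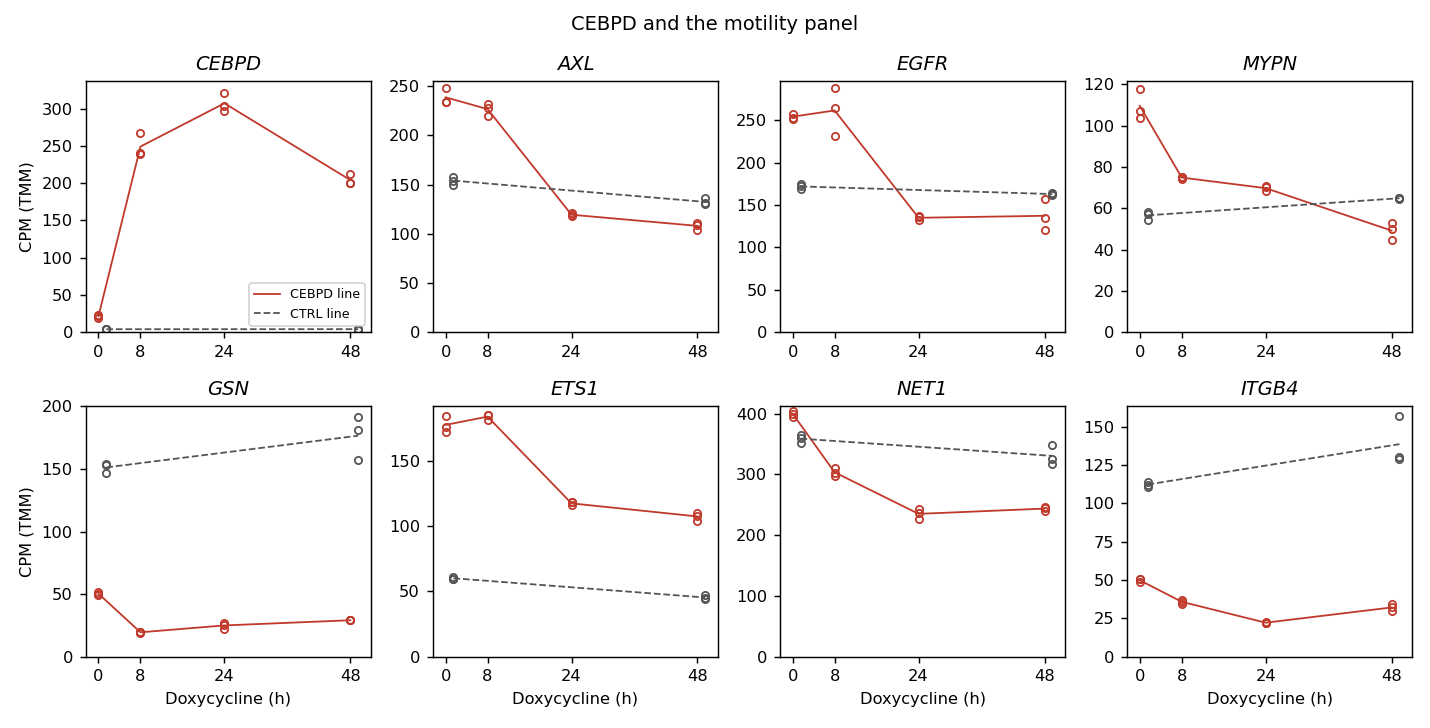
CPM of CEBPD and the 7 motility genes against hours of doxycycline, with 1 point per library and lines through the means, for the CEBPD line (red) and for CTRL cells at 0 h and 48 h (grey, dashed). CEBPD is at 200 to 212 CPM at 48 h, and for each of the 7 genes all 3 CEBPD libraries at 48 h lie below those at 0 h.

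The 12 largest falls included a growth factor, receptors and noncoding RNAs. FGF1, a fibroblast growth factor, fell from 2.4, 2.84 and 2.08 to 0.283, 0.216 and 0.409 CPM, with a log2 fold change of -3.04 (SE 0.31, adjusted p = 9.98e-09), and it fell in CTRL cells by 2.04. DKK1, a secreted Wnt antagonist, fell from 43.1, 46.3 and 44.2 to 11.3, 10.9 and 11.5 CPM, with a log2 fold change of -2.0 (SE 0.06, adjusted p = 7.52e-19). It fell in CTRL cells too, by 1.28, and the interaction of -0.73 was called (adjusted p = 5.59e-05). TLR5, the receptor of bacterial flagellin, fell from 8.1, 7.92 and 7.93 to 1.81, 2.29 and 1.93 CPM, with a log2 fold change of -1.98 (SE 0.14, adjusted p = 6.64e-12), against -0.40 in CTRL cells and an interaction of -1.59. SIGIRR, another receptor of the Toll and interleukin-1 family, had a log2 fold change of -1.80, and the zinc-sensing receptor GPR39 one of -1.92. APLN, the angiogenic peptide apelin, fell by 1.86 and by 1.71 in CTRL cells. NOG, the BMP antagonist noggin, and the transmembrane collagen COL13A1 fell by 1.79 and 1.77. The bile acid and drug transporter gene SLCO1B1, the long noncoding RNAs SIRLNT and LASTR, and the small nucleolar RNA SNORD46 fell by 2.04, 2.04, 2.03 and 1.75. SNORD46 fell by 2.09 in CTRL cells. TLR5 and DKK1 were called in the interaction, and the other 10 were not.

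Epithelial genes did not move as 1 group. CDH1, which encodes E-cadherin, had 0, 3 and 4 counts at 0 h and 85, 52 and 71 counts at 48 h, a ratio of 29.9 with a counting interval from 14.3 to 75.4 (adjusted p = 9.33e-10). Its mean was 0.121 CPM at 0 h, 4.75 CPM at 8 h, 1.75 CPM at 24 h and 3.73 CPM at 48 h. In CTRL cells it was at 1.04 CPM at 0 h and 1.03 CPM at 48 h, and the interaction was 4.90 (adjusted p = 0.00254). This interaction missed the threshold when either of 2 CEBPD or 1 CTRL library at 0 h was left out (adjusted p from 0.0110 to 0.0133). It was not called by DESeq2 and missed the threshold by analysis of variance (0.0462). The library at 48 h with 14 squamous counts held the most CDH1 counts, 85, and 95 counts of the simple epithelial genes. With that library alone at 48 h the log2 fold change was 5.25 and was called. CDH1 shares bases with an antisense gene. Of the 14 genes of the study's EMT panel that were tested, 4 rose (CDH1, SNAI2, LAMB1 and COL4A1) and 4 fell (S100A4, SDC1, VIM and ZEB1). In CTRL cells 1 rose and 1 fell of 13 tested. Over all genes in the CEBPD line 19.1% rose and 19.5% fell, and the panel was chosen by the study for these cells. The study prints SCD1 where the list used here holds SDC1, and SCD, described below, rose. SNAI2, the EMT factor Slug, went from 2.72, 2.88 and 2.19 to 4.81, 4.45 and 4.38 CPM, a log2 fold change of 0.78 (SE 0.15). ZEB1 and VIM, markers of the mesenchymal state, had log2 fold changes of -0.12 and -0.13. The ZEB1 call was lost in 5 of the 6 fits that left out 1 library (adjusted p from 0.0132 to 0.0264) and with all libraries in the fit (0.130). S100A4, a metastasis-associated calcium-binding protein, fell by 0.48, with an interaction of -0.38.

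Of 24 tested genes of epithelial junctions and polarity, 11 rose and 2 fell, with a median of 0.36. By DESeq2 8 rose and 2 fell. In CTRL cells 14 of 30 tested rose and none fell, and in the interaction 2 were more positive (CDH1 and CLDN1) and 1 more negative (CLDN4). With only the first library at 48 h the median over 33 tested genes was 0.51. That library held few squamous counts but 95 counts of the simple epithelial genes. EPCAM, ESRP1, GRHL2 and SPINT1 are in both lists, so that fit cannot set this list apart from the traces. The tight junction gene CLDN1 went from 94.1, 106 and 97.1 to 150, 156 and 172 CPM, with a log2 fold change of 0.67 (SE 0.04) and an interaction of 0.73. CLDN4 went from 13.4, 14.2 and 12.4 to 9.62, 8.3 and 10.6 CPM, with a log2 fold change of -0.52 against 0.68 in CTRL cells. The desmosomal genes DSP and JUP rose by 0.75 and 0.68, and in CTRL cells by 0.95 and 1.55. The JUP rise in the CEBPD line missed the threshold with all libraries in the fit (adjusted p = 0.0736). Among 9 tested keratins 3 rose and 4 fell, and with only the first library at 48 h 3 rose and 3 fell. Over all genes 19.1% rose and 19.5% fell. KRT81 and the low KRT17 and KRT7 were the keratin rises. The simple epithelial keratins KRT8, KRT18 and KRT19 and the keratin KRT80 were the falls, and KRT8 went from 71.7, 75 and 76.2 to 37.1, 36.8 and 36.7 CPM, a log2 fold change of -1.02 (SE 0.04). In CTRL cells KRT8 fell by 0.57 from a mean of 1559.8 CPM, and the interaction was -0.46. KRT17, a keratin of stressed and basal epithelium, had 0, 1 and 2 counts at 0 h and 19, 29 and 17 at 48 h, and it did not follow the squamous sum across the 3 libraries. At 8 h it had 3, 57 and 59 counts, beside squamous sums of 4, 170 and 344 counts.

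Of 58 tested genes of the actin cytoskeleton 13 rose and 22 fell, with a median of -0.03, while in CTRL cells 3 of 57 rose and 27 fell. The interaction called 13 more positive and 1, GSN, more negative, where 2.83% of all genes were more positive and 2.72% more negative. MYL9, a regulatory light chain of myosin, rose from 32.3, 30.2 and 31.6 to 57.8, 55.9 and 55.6 CPM, with a log2 fold change of 0.84 (SE 0.05) and an interaction of 0.51. The focal adhesion protein gene VCL rose by 0.33 and the tropomyosin gene TPM4 by 0.28, and both fell in CTRL cells, with interactions of 0.46 and 0.48. EZR and ACTN4, which link actin to the membrane and crosslink it, fell by 0.62 and 0.59, and by 0.48 each in CTRL cells. Of 16 tested integrins and laminins 4 rose and 3 fell, where 19.1% of all genes rose and 19.5% fell, and in CTRL cells 4 of 15 rose and none fell. ITGA6, the partner of integrin β4, fell from 44.6, 44.6 and 42.2 to 31.8, 34 and 32.5 CPM, a log2 fold change of -0.43 (SE 0.05) with an interaction of -0.37 that missed the threshold with all libraries in the fit (adjusted p = 0.0176), with only the first library at 48 h (0.0157) or with the replicate block (0.0107). ITGB5 rose by 0.68.

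Of 7 tested members of the EGFR family 5 rose and 2, EGFR and the ligand HBEGF, fell, where 19.1% of all genes rose and 19.5% fell. By DESeq2 3 rose and 2 fell, as did 3 and 2 of 9 tested with all libraries in the fit, and HBEGF missed the threshold with only the first library at 48 h (adjusted p = 0.0609). The ligand AREG went from 23.6, 25.4 and 25 to 43.9, 46.4 and 43.1 CPM, with a log2 fold change of 0.84 (SE 0.06) and an interaction of 0.51. EREG, the most abundant ligand by CPM, went from 312, 341 and 324 to 382, 399 and 431 CPM, a log2 fold change of 0.30 with an interaction of 0.69, since it fell by 0.40 in CTRL cells. ERBB3, a receptor without strong kinase activity of its own, rose by 1.42, and by 1.23 in CTRL cells. Of 19 tested genes of the ERK response and its feedback 9 rose and 5 fell, and the interaction called 6 more positive and 2 more negative, or 3 and 1 with only the first library at 48 h. The immediate-early factor EGR1 went from 28.8, 34.3 and 35.6 to 108, 125 and 117 CPM, a log2 fold change of 1.82 (SE 0.06, adjusted p = 8.65e-19) with an interaction of 1.24. IER3 went from 9.59, 10.8 and 9.84 to 32.1, 32.8 and 29 CPM, a log2 fold change of 1.63 with an interaction of 1.36, and DUSP6, the phosphatase of ERK, rose by 0.67 with an interaction of 0.87. FOSL1, an AP-1 subunit, fell from 82.2, 94.5 and 88.7 to 40.1, 35.2 and 37.9 CPM, by 1.25, and by 1.12 in CTRL cells. DUSP5, SPRY2, SPRY4 and ETS1 made up the other falls. In CTRL cells 6 of the 19 genes of this list rose and 7 fell.

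Proliferation genes were lower in both lines. Of 41 tested G1/S and DNA replication genes 35 fell and none rose, with a median of -0.38, and in CTRL cells 32 fell and 1 rose, with a median of -0.40. The interaction called 2 in each direction, where 2.83% of all genes were more positive and 2.72% more negative. E2F1, the transcription factor that drives S phase genes, fell from 55.4, 56.5 and 53.1 to 33, 33.5 and 30.5 CPM, a log2 fold change of -0.78 (SE 0.05), against -0.53 in CTRL cells. Of 34 tested G2/M and mitosis genes 31 fell and 1, HMMR, rose, with a median of -0.31 against -0.30 in CTRL cells. The cytokinesis gene ANLN fell from 725, 721 and 720 to 409, 406 and 420 CPM, by 0.82, and by 0.65 in CTRL cells. Of 51 tested replication-dependent histone genes 47 fell in each line, and sequence copies within that family may share reads. The CDK inhibitor gene CDKN1A (p21) did differ between the lines. It went from 13.7, 14.8 and 14.1 to 30.8, 30.1 and 29.8 CPM, with a log2 fold change of 1.08 (SE 0.07, adjusted p = 4.38e-13), while in CTRL cells it was at 5.08 and 5.09 CPM, and the interaction was 1.07 (adjusted p = 1.32e-05). CDKN2C, CDKN2D and CDKN3 fell, by 0.97, 0.52 and 0.60. Of 6 CDK inhibitor genes tested in CTRL cells 1 rose and 2 fell, and the interaction called 1 in each direction. The CDKN2D fall missed the threshold by DESeq2 (adjusted p = 0.0176) and when 1 of certain libraries was left out (0.0143 to 0.0271).

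**Figure D5:**
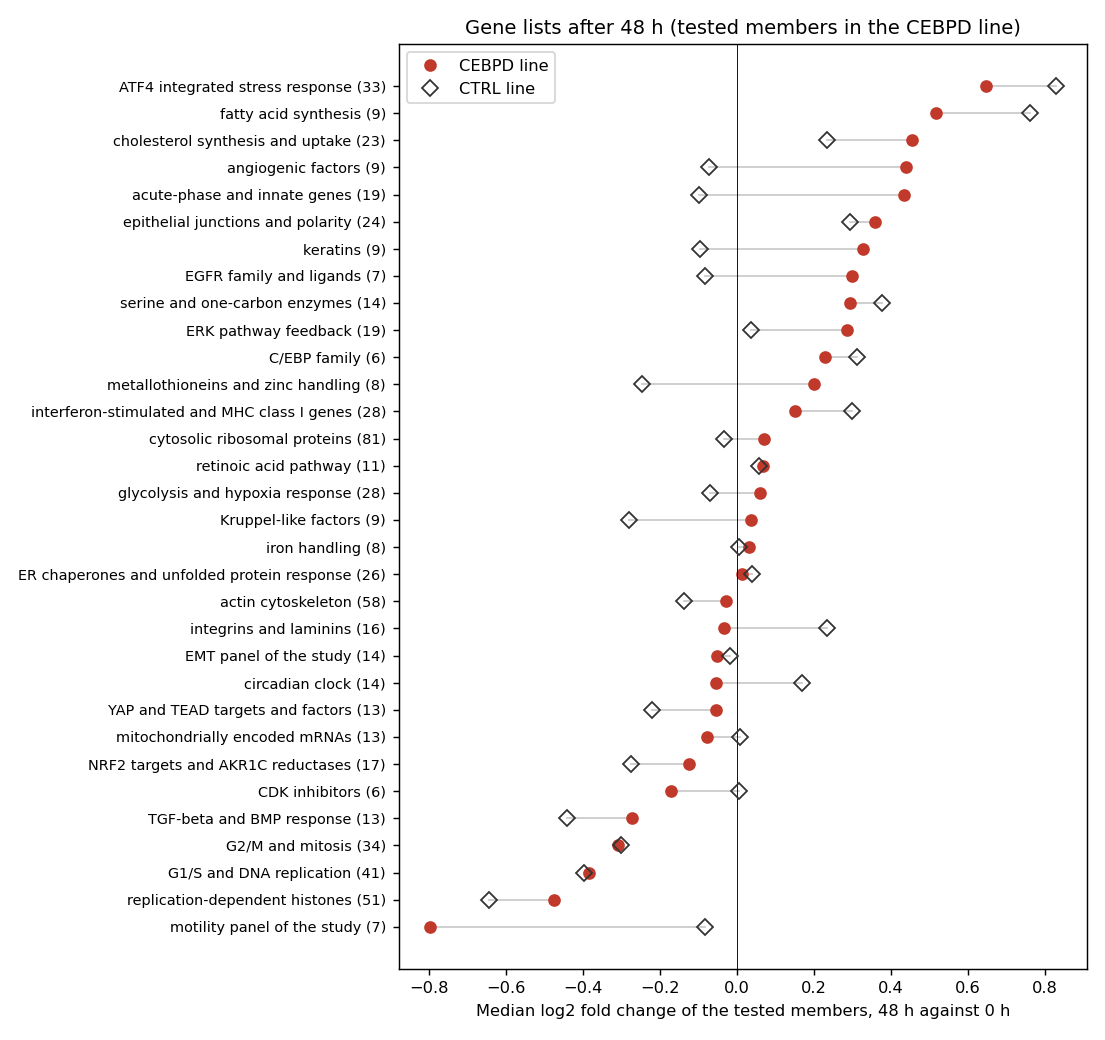
Median log2 fold change between 48 h and 0 h of the tested members of each gene list, in the CEBPD line (red circles) and in CTRL cells (open diamonds), with the number tested in the CEBPD line in parentheses. The motility panel lies at -0.80 in the CEBPD line, and the ATF4 list is positive in both lines, at 0.65 and 0.83.

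Genes of the integrated stress response were higher in both lines. This response slows translation and raises the factor ATF4, which drives amino acid supply. Of 33 tested members 28 rose and 2 fell, with a median of 0.65, and in CTRL cells 26 of 32 rose with a median of 0.83. The interaction called 10 more negative and 1, TRIB3, more positive, and with only the first library at 48 h 4 were more negative. TRIB3, a pseudokinase that inhibits AKT, went from 16.2, 17.9 and 16 to 72.4, 69.9 and 71 CPM, a log2 fold change of 2.07 (SE 0.05) against 1.39 in CTRL cells, with an interaction of 0.68. CHAC1, which degrades glutathione, rose by 1.30 and by 2.17 in CTRL cells, with an interaction of -0.88, which missed the threshold without the second CEBPD (adjusted p = 0.0125) or the second CTRL library at 0 h (0.0155). DDIT4, an inhibitor of mTORC1, went from 70.6, 69.3 and 74.1 to 336, 343 and 321 CPM, by 2.22, and by 2.08 in CTRL cells. PHGDH, the first enzyme of serine synthesis, went from 112, 121 and 121 to 257, 265 and 249 CPM, a log2 fold change of 1.11 against 1.51, with an interaction of -0.42.

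Of 23 tested genes of cholesterol synthesis and uptake 18 rose and none fell, with a median of 0.45, and in CTRL cells 11 rose and 2 fell, with a median of 0.23. The interaction called 7 more positive and none more negative, and with only the first library at 48 h 4 were more positive. MSMO1, a sterol oxidase, went from 10, 10.5 and 10.2 to 34.4, 34.7 and 37.7 CPM, a log2 fold change of 1.78 (SE 0.07). Its interaction of 0.89 missed the threshold with the replicate block (adjusted p = 0.0104) and by analysis of variance (0.0306). HMGCS1, an early enzyme of the pathway, went from 36.9, 34.7 and 34.7 to 71.2, 69.5 and 72.3 CPM, a log2 fold change of 0.99 with an interaction of 0.61. SCD, the stearoyl-CoA desaturase, went from 802, 768 and 776 to 2623, 2621 and 2624 CPM, a log2 fold change of 1.73 (SE 0.03, adjusted p = 5.87e-26). It rose by 1.31 in CTRL cells, with an interaction of 0.41. Of 28 tested genes of glycolysis and the hypoxia response 12 rose and 4 fell, with a median of 0.06, in CTRL cells 8 rose and 9 fell, and the interaction called 12 more positive and none more negative. With only the first library at 48 h, 11 rose, 1 fell and the interaction called 8. PGK1, a glycolytic enzyme, went from 693, 702 and 699 to 1003, 1011 and 1010 CPM, a log2 fold change of 0.52 (SE 0.02) with an interaction of 0.54. VEGFA, the vascular growth factor, rose by 1.20, and by 1.42 in CTRL cells.

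The most negative interactions rested partly on rises in CTRL cells. CENPT, a kinetochore protein gene, went from 46.2, 48.5 and 48.2 to 35.8, 36.5 and 35.5 CPM in the CEBPD line and from a mean of 48.1 to 224 CPM in CTRL cells, with an interaction of -2.64 (adjusted p = 7.42e-13). The intermediate filament gene NES, the butyrophilin gene BTN3A2 and the MHC class I regulator NLRC5 had interactions of -1.68, -1.76 and -1.63. They fell by 0.24, 0.46 and 0.33 in the CEBPD line and rose by 1.43, 1.29 and 1.28 in CTRL cells. The NES and NLRC5 falls missed the threshold by DESeq2 (adjusted p = 0.0141 and 0.0219). The NES fall also missed it without the second CEBPD library at 0 h (0.0492). The NLRC5 fall missed it when 1 of certain libraries was left out (0.0119 to 0.0195). NGFR, the low-affinity neurotrophin receptor, fell from 4.69, 5.4 and 5.29 to 2.43, 2.07 and 2.63 CPM, with an interaction of -1.65, and SYTL4, a granule protein gene, fell by 0.99 with an interaction of -1.84. ALDH1A1, a retinaldehyde dehydrogenase, fell from 2.72, 2.43 and 6.02 to 1.36, 1.47 and 0.876 CPM, with an interaction of -1.67, while its mean was 1846 CPM in CTRL cells at 0 h. With all libraries in the fit the ALDH1A1 fall (adjusted p = 0.0260) and interaction (0.0637) missed the threshold. Among the most positive interactions, those of S100A9, KRT17, C3 and IGFBP5 were 12.68, 7.47, 4.46 and 3.87, and those of DMKN, CEBPD and KRT81 were 3.22, 3.21 and 2.75. The third CTRL library at 0 h held 82 S100A9, 38 C3, 27 IGFBP5 and 23 KRT17 counts. Without it the interactions were 8.11 for S100A9 (adjusted p = 0.0304), 2.88 for C3 (0.0212), 2.20 for DMKN (0.172) and -0.020 for IGFBP5 (0.955), none of which passed the threshold. The IGFBP5 interaction also missed it by DESeq2 (0.0820) and in 9 of the 12 fits that left out 1 library. The changes of these genes within the CEBPD line do not use that library, and the size of a fitted interaction with so few counts depends on the prior count. KRT17 rose by 4.27 within the CEBPD line, less than its interaction of 7.47, which also rests on the 23 counts of that library.

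Between 24 h and 48 h in the CEBPD line 3724 of 15642 genes (23.8%) passed the test, 1836 (11.7%) higher and 1888 (12.1%) lower. KRT81 went from a mean of 50.6 to 119 CPM, a log2 fold change of 1.22 (SE 0.04), and IL21R from 0.565 to 3.75 CPM, by 2.71. SERPINA3, the protease inhibitor α1-antichymotrypsin, rose by 2.66 to 1.75, 1.77 and 1.69 CPM, and the tissue plasminogen activator gene PLAT by 2.67 to 3.51, 1.73 and 1.93 CPM. THBS1, which encodes thrombospondin-1, and FAT2, a protocadherin of squamous epithelium, rose by 2.61 and 2.89 to 1.47, 1.47 and 5.25 CPM and to 3.62, 2.12 and 9.81 CPM. Both were highest in the third library, with a squamous sum of 174 counts, while the second, with 211, held the lowest FAT2 level. With the first library alone at 48 h, THBS1 had a log2 fold change of 1.77 after 24 h and missed the threshold (adjusted p = 0.0227). KRT17 rose from 2, 1 and 0 counts at 24 h to 19, 29 and 17 counts at 48 h. The largest falls after 24 h were those of ALDH1A1, SMG1P4, RN7SL5P, LYZ, ENSG00000281451 and SNORD46, by 2.46, 1.89, 1.88, 1.80, 1.76 and 1.45. Several of these were low or scattered between wells, LYZ for instance at 1.65, 5.36 and 0.0563 CPM at 0 h. SMG1P4 and RN7SL5P belong to families of near-identical copies. By DESeq2 the falls of LYZ (adjusted p = 0.0533) and RN7SL5P (0.221) missed the threshold. With all libraries in the fit those of LYZ (0.282), RN7SL5P (0.0501) and SMG1P4 (0.0499) missed it. Each of these also missed it when 1 of certain libraries was left out. SLPI and TLR5 did not pass the test after 24 h, with log2 fold changes of 0.07 and 0.01.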

How the data were processed

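RNA of 24 wells was sequenced as 50 bp reads from libraries depleted of ribosomal RNA. Per the methods, the authors trimmed reads with Trimmomatic, aligned them to GRCh38 (Ensembl 84) with Hisat2 and deposited whole-number HTSeq counts per gene. The strand setting is not given in the sources used here.

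From the deposited counts, TMM-scaled CPM and edgeR's quasi-likelihood test (edgeR 4.0.16, R 4.3.3; filterByExpr; 2-sided; Benjamini-Hochberg, FDR 0.01) were computed within the groups compared. Standard errors are the size of the fold change divided by the square root of its F statistic. The interaction was fitted over both lines at 0 h and 48 h. DESeq2 1.42.0, an analysis of variance of log2(CPM + 1) after the method of the study (fitted with limma 3.58.1, without moderation), RLE scaling, other count filters, left-out libraries and a replicate block were alternatives. On simulated counts for the comparison of 48 h with 0 h (15134 genes), edgeR recovered 82.7% of 191 changed genes with 2 false calls. Recovery was 81.0% at 2-fold and 68.2% at the smallest fold used, which was under 2-fold. For the interaction (15942 genes) edgeR recovered 65.3% of 199 changed genes with 7 false calls. Smaller folds and a larger share of changed genes were not tested. Of 60675 identifiers, 56558 matched GENCODE 44, used for symbols and positions. Library totals give the depth, and intervals and floors cover counting error only. Named genes were the 12 largest non-overlapping changes per direction with a mean of at least 1 CPM, the 8 largest interactions and the 6 largest changes after 24 h per direction, and examples of called list members. The members and lists were chosen with earlier results of these data known. Some genes are not reported here.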

Additional observations from a re-analysis of the deposited data

Results flagged for a closer look

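The change over 48 h of doxycycline differed between the CEBPD line and CTRL cells for 904 of 16306 genes by the test of the interaction itself, and the named genes among them are given here by their interaction on the log2 scale (CEBPD line minus CTRL cells, n = 3 wells per group). Innate and signalling genes differed, with 0.69 for NFKBIA, -0.72 for STAT3, -1.59 for TLR5, 1.24 for EGR1, 1.36 for IER3, 0.87 for DUSP6, 0.51 for AREG and 0.69 for EREG. The motility panel was lower in the CEBPD line, with -0.94 for AXL, -0.83 for EGFR, -0.33 for ETS1, -1.02 for GSN, -0.96 for ITGB4, -1.37 for MYPN and -0.61 for NET1. Among adhesion, keratin and cytoskeletal genes the values were 4.90 for CDH1, 0.73 for CLDN1, -1.20 for CLDN4, -0.46 for KRT8, 7.47 for KRT17, 2.75 for KRT81, -0.38 for S100A4, -0.37 for ITGA6, 0.51 for MYL9, 0.46 for VCL and 0.48 for TPM4. Metabolic, transport and stress genes gave 2.13 for SLC2A3, 1.93 for ABCG1, 0.89 for MSMO1, 0.61 for HMGCS1, 0.41 for SCD, 0.54 for PGK1, -0.42 for PHGDH, 0.68 for TRIB3, -0.88 for CHAC1 and -1.67 for ALDH1A1. The induced CEBPD itself had 3.21, and the CDK inhibitor CDKN1A had 1.07. Secreted proteins, receptors and other genes had 12.68 for S100A9, 4.46 for C3, 3.87 for IGFBP5, 3.22 for DMKN, -0.73 for DKK1, -1.65 for NGFR, -2.64 for CENPT, -1.68 for NES, -1.76 for BTN3A2, -1.63 for NLRC5 and -1.84 for SYTL4. Those of S100A9, C3, IGFBP5 and DMKN missed the threshold without the third CTRL library at 0 h, that of IGFBP5 in 9 of the 12 fits that left out 1 library, that of CHAC1 without the second CEBPD or the second CTRL library at 0 h, that of SYTL4 without either of 2 CTRL libraries at 0 h or either of 2 at 48 h, and that of CDH1 without any 1 of 3 libraries at 0 h. With all libraries in the fit the interactions of ALDH1A1 and ITGA6 missed the threshold (adjusted p = 0.0637 and 0.0176). DESeq2 did not call the CDH1 interaction. With the replicate block those of DMKN, ETS1, IGFBP5, ITGA6, MSMO1 and SYTL4 missed the threshold (adjusted p from 0.0102 to 0.0225). KRT17 rose by 4.27 within the CEBPD line, and its interaction of 7.47 also rests on the third CTRL library at 0 h. No library of the named genes was tested as an outlier, since each group holds 3.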

How the results depend on the processing

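For the CEBPD line 48 h against 0 h the 5952 calls were 4892 by DESeq2, 5955 with relative log expression (RLE) size factors, 4887 with all 24 libraries in 1 fit and 2238 by an analysis of variance of log2(CPM + 1), and they ranged from 4933 to 5944 when 1 library was left out. With the first library alone at 48 h, chosen after seeing the squamous traces, they were 3797. In this setting a lone library is taken to vary like the others. In CTRL cells the 4583 calls became 1659 by analysis of variance and 3105 to 5279 with 1 library left out. The 904 interaction calls became 537 with a replicate block, 1666 at an FDR of 0.05, 431 with the first library alone and 625 to 1179 with 1 library left out. The 3724 calls between 24 h and 48 h became 24 by analysis of variance, 1080 with the first library alone and 2448 to 3629 with 1 library left out, the lowest without the second library at 48 h. Whether the replicate numbers mark a pairing is not known. In the CEBPD line the deviations of same-numbered libraries at 48 h and 0 h correlated at 0.040 to 0.155. Those of differently numbered libraries correlated at -0.100 to 0.039, and such small values cannot settle it. The block gave 6047 calls between 48 h and 0 h, of which 5908 were shared with the fit without it. Between 24 h and 48 h it gave 4316 calls, of which 3703 were shared. The IGFBP5 interaction turned to -0.020 without the third CTRL library at 0 h and ranged up to 4.44 with another library left out. All 7 motility genes kept a called fall at 48 h under every alternative run, and 6 kept a called interaction with the block or with the first library alone. The causes of these changes were not tested. With 3 wells a group, an exact permutation test cannot go below 0.1. Genes with few counts at 0 h have folds known only within wide counting intervals, and depth limits them.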

Other observations

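Of 8 tested metallothionein and zinc genes 4 rose and 1 fell, and in CTRL cells none rose and 3 fell. In the CEBPD line 19.1% of all genes rose and 19.5% fell. MT2A, the main metallothionein, was at 251, 276 and 260 CPM at 0 h and at 347, 350 and 360 CPM at 48 h, a log2 fold change of 0.41 (SE 0.03), against -0.14 in CTRL cells. Of 8 tested iron genes 3 rose and 1 fell, with a median log2 fold change of 0.03, and in CTRL cells none rose and 2 fell. FTH1, the heavy chain of the iron store ferritin, was at 252, 267 and 257 CPM at 0 h and at 409, 427 and 425 CPM at 48 h, a log2 fold change of 0.69 (SE 0.03), against 0.13 in CTRL cells. HMOX1, which frees iron from haem, fell by 0.53, and by 0.71 in CTRL cells.

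Of 14 tested clock genes 4 rose and 4 fell, and of 9 tested Krüppel-like factor genes 3 rose and 4 fell, where 19.1% of all genes rose and 19.5% fell. In CTRL cells 5 clock genes rose and 2 fell, and 1 Krüppel-like factor gene rose and 4 fell. The repressor gene BHLHE40 went from 13.7, 13.1 and 13.2 to 48.7, 49.6 and 47.2 CPM, a log2 fold change of 1.86, against 1.02 in CTRL cells. NFIL3, a basic leucine zipper repressor, rose from 8.95, 8.06 and 9.39 to 19.9, 18.8 and 19.9 CPM, by 1.14, against 0.04 in CTRL cells. KLF4, a factor of epithelial differentiation, fell from 53.3, 57.5 and 55.8 to 24.5, 22.5 and 24.4 CPM, by 1.24, and by 0.83 in CTRL cells. KLF13 rose by 0.65. ABCC3, an exporter of organic anions, went from 3.62, 3.75 and 3.77 to 15.4, 12.4 and 11.4 CPM, a log2 fold change of 1.80. Of 81 tested cytosolic ribosomal protein genes 28 rose and 1 fell, with a median log2 fold change of 0.07. In CTRL cells 1 rose and 7 fell. The interaction called 1 of the 81 more positive and none more negative, where 2.83% of all genes were more positive and 2.72% more negative.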
